A study of Mus musculus with 6 samples.

Results

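The Sox genes encode transcription factors that bind DNA through a shared HMG domain, and 10 of them (Sox1, Sox2, Sox3, Sox4, Sox5, Sox6, Sox8, Sox9, Sox11 and Sox21) were examined in sorted cells of the embryonic mouse ventral mesencephalon at day 12.5 of gestation. Every probe set whose platform gene symbol was exactly one of these names was taken, which gave 36 probe sets of the 45101 on the array, for 10 of the 18193 genes it names. The rule used no measured value, though the members were chosen with earlier results of these data known. Total RNA of each sample was labelled and hybridized to 1 array, with 3 arrays in each of 2 groups. The first group, called positive here, was the GFP-positive fraction of Ngn2-GFP embryos of strain CD1/129, whose reporter is named after the proneural gene Neurog2 (Ngn2), and the labels name these cells midbrain dopaminergic progenitors. The second, called negative here, was the GFP-negative fraction of Lmx1a-GFP embryos of strain C57BL/6, whose reporter is named after Lmx1a, a transcription factor of dopaminergic progenitors. The labels name it a non-dopaminergic progenitor population, defined by the absence of a reporter. Each group had its own strain, reporter line and gate, so these cannot be told apart from the sorted population. The sources used here do not give how the reporter alleles were built or how many embryos were pooled per sample.

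SoxB1 factors (Sox1, Sox2 and Sox3) hold neural progenitors in an undifferentiated, dividing state, and the SoxB2 factor Sox21 represses many of the genes that they activate. Sox9 and Sox8 belong to the SoxE class, which is known for neural stem cell maintenance and the start of gliogenesis. As cells leave the cycle, the SoxC factors Sox4 and Sox11 switch on genes of neuronal differentiation, while the SoxD factors Sox5 and Sox6 lack an activation domain of their own and modulate other Sox proteins. The design sets Sox genes of progenitors (Sox1, Sox2, Sox3, Sox21 and Sox9) beside those of young neurons (Sox4 and Sox11) in the sorted groups. In bulk samples, fewer cells of a type and less RNA per cell cannot be told apart.

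The DNA just upstream of the annotated start is shown for Sox1, the member that passed the test, and for Sox11, the SoxC gene with 2 matches to the E-box CANNTG, the kind of site that proneural factors such as Neurog2 bind. Both stretches are RefSeq sequence of build GRCm38.p6, 250 bases long and written 5′ to 3′ on the strand of the gene. Sox1 lies on the plus strand at chr8:12395269-12395518 and Sox11 on the minus strand at chr12:27342719-27342968. Capitals mark matches to the E-box or to the Sox motifs ACAAAG and ACAATG, searched on both strands.
Sox1: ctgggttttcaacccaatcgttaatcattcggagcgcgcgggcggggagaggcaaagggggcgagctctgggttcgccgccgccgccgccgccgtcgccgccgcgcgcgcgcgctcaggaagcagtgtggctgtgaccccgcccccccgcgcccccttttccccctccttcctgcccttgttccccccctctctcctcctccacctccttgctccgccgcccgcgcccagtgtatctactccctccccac
Sox11: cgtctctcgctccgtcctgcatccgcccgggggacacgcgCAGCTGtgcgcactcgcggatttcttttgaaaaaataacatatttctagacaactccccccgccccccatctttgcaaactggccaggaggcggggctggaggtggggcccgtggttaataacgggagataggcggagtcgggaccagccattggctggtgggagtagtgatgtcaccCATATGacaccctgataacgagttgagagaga
The Sox1 stretch holds neither motif, and the Sox11 stretch holds 2 E-boxes and no Sox motif. Of 32851 promoter windows of this length, 66.2% hold an E-box and 25.2% a Sox motif. Among the other members with a window, Sox4 and Sox8 hold 1 E-box each, Sox2 and Sox5 hold 1 Sox motif each, and Sox21 holds neither. Sox6 has 6 annotated starts, whose windows hold 1 to 3 E-boxes and 0 to 4 Sox motifs, with no match of one kind overlapping the other. A match is a description of letters and not a site of binding.

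Values are MAS5 signals on a linear scale. Differences are on the log2 scale and give positive minus negative. Their standard errors (SE) come from a limma fit across 12042 genes, with p adjusted by Benjamini-Hochberg over all of them, with a threshold of 0.05. Each gene was represented by its brightest probe set. The sort could be checked on marker genes. Of 11 tested dopaminergic neuron and floor plate genes 7 passed as higher in positive cells, and all 11 values were above 0. Of 8 midbrain GABAergic genes 6 passed as lower, and all 8 values were below 0. Over all tested genes 0.424% passed as higher and 0.639% as lower, and 47.6% of values were below 0. The 11 include Lmx1a, whose reporter set the negative gate, so its low value there is partly given by the sort. Lmx1a, Slc6a3 and Corin passed the filter through the positive arrays alone. Spike-ins and blood cell genes set arrays apart. The hybridization spike-ins, which are labelled control transcripts added to the hybridization mix, averaged 2293 and 2352 on positive replicates 1 and 2, against 4254 to 6560 on the other 4 arrays. The 18S ribosomal RNA control probe sets split the same way, at 3713 and 3696 against 7241 to 9276. The ratio of 3′ to 5′ Gapdh signal, a sign of RNA quality and labelling, was 4.41 and 4.73 on those positive arrays, 8.84 on positive replicate 3 and 5.94 to 9.21 in the negative group. Blood cell genes were far lower in positive cells, with 4 of 4 tested erythroid genes lower. Summed over 5 erythroid genes, the signal was 291.3 to 604.8 in positive samples and 7371 to 14425 in negative ones. Macrophage genes followed them, at 3 of 3 tested lower and a summed signal over 8 genes of 17.5 to 36.3 against 219.4 to 635.9. Of the 8, 7 were not above the filter level on any positive array. The erythroid genes Hba-x and Hbb-bh1 and the macrophage genes Csf1r and Aif1 passed the filter through the negative arrays alone. The 4 of 4 and 3 of 3 thus depend in part on the filter, while the sums use none. The part of these differences in the Sox values was not tested.

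Of the 10 Sox genes, 1 passed the threshold and was lower in positive cells, beside 1.06% of all tested genes called in either direction, 0.639% called lower and 0.424% called higher. The one was Sox1. Looser measures counted more: 5 members had an unadjusted p under 0.05 (10.8% of all genes did) and 3 members had groups that did not overlap (15.5% of all genes). Of the 3, Sox1 and Sox9 were on the lower side (7.24% of all genes) and Sox21 on the higher side (8.21%). In the fit of single probe sets none of the 28 Sox probe sets passed, beside 0.652% of 23168, and 6 had groups that did not overlap, beside 14.5%. Fitted values were below 0 for 7 members, against 47.6% of all genes, and the median over the members was -0.26, against 0.03 over all genes. All 10 genes had a tested probe set. Of the 36 probe sets 28 were tested, and the other 8 had no signal above 18.8.

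**Figure D1:**
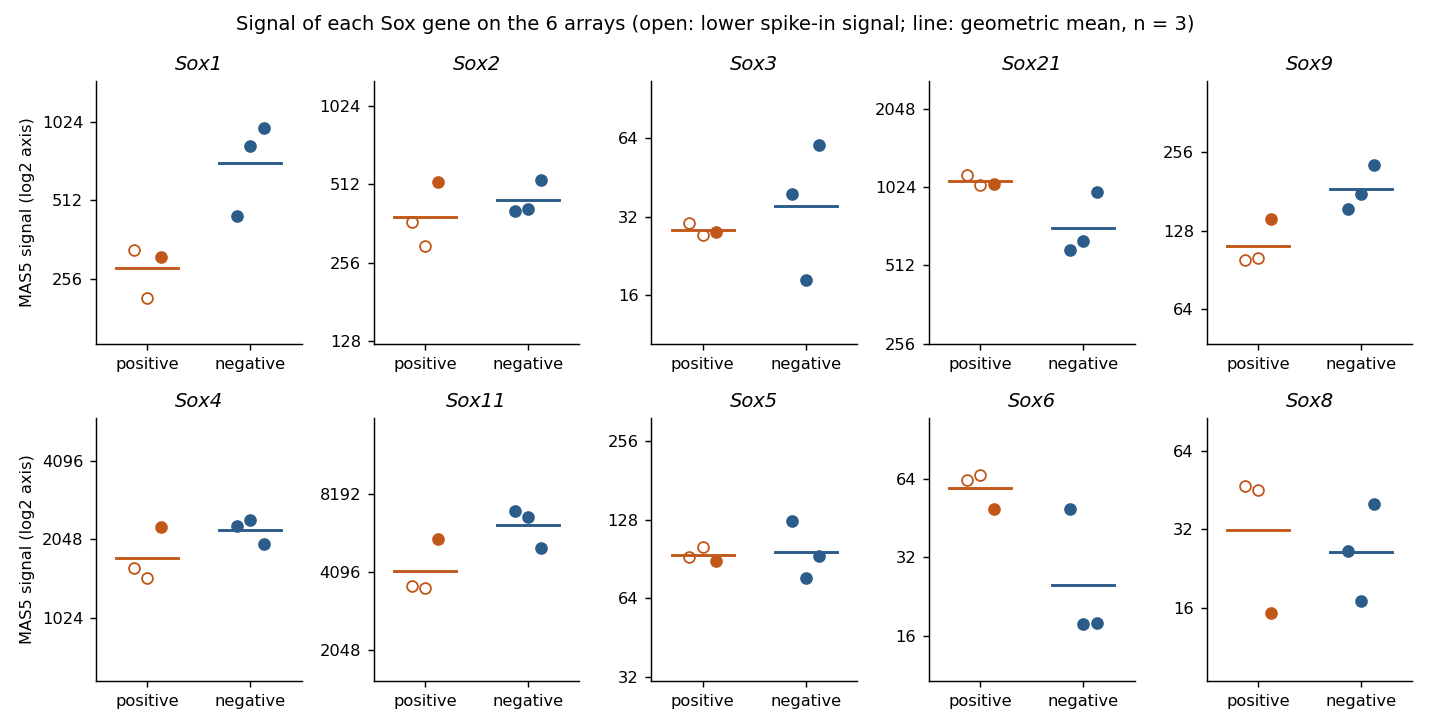
Signal of the probe set that represents each Sox gene (y axis, MAS5 signal on a log2 axis of equal span in every panel) on 3 positive and 3 negative arrays (x axis), with a line at the geometric mean of each group and open points for positive replicates 1 and 2, the arrays of lower spike-in signal. The 3 positive values lie below the 3 negative ones for Sox1 and Sox9 and above them for Sox21, and overlap them for the other 7 genes.

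The SoxB1 genes, which maintain neural progenitors, were not tested against each other. Among them Sox1 was the member that passed the threshold. Its signal was 330.2, 216.2 and 309.7 on positive replicates 1, 2 and 3 and 443.6, 827.9 and 973.5 on the negative ones. Every positive value lay under every negative one, and the negative values spread over more than the positive ones. On the log2 scale the groups were at 8.13 ± 0.33 and 9.47 ± 0.60 (SD, n = 3 each), a difference of -1.34 (SE 0.29, limma adjusted p = 0.0483), or 2.53-fold. The second Sox1 probe set stayed at 0.663 to 2.01 on all arrays, below the filter, so the call rests on 1 probe set.

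The Sox1 call sat at the edge of the threshold. The adjusted p was 0.0812 without positive replicate 1, 0.264 without positive replicate 2, 0.198 without negative replicate 2 and 0.175 without negative replicate 3, at differences of -1.46, -1.15, -1.23 and -1.11. Without positive replicate 3 or negative replicate 1 the call held, at 0.0400 and 0.0114. With the spike-in split as a block, a fit that sets positive replicate 3 alone against the 3 negative arrays, the difference was -1.20 and did not pass (adjusted p = 0.511). In 18 of 18 alternative settings the value was negative, from -1.68 to -1.11, and it passed in 8. Settings such as the variance model and the replicate block left the difference itself at -1.34, and both spike-in fits gave the same value. The 18 are thus not independent checks of its sign.

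Sox2, the SoxB1 factor shared by nearly all neural stem cells, did not pass. It read 366.2, 297.0 and 520.1 on the positive arrays and 404.8, 410.3 and 533.1 on the negative arrays. Positive replicate 3 lay inside the negative range and the other 2 positive values lay below it. The difference was -0.22 (SE 0.24, adjusted p = 0.768), with a 95% interval of -0.73 to 0.30, so a fall as large as that of Sox1 lies outside the interval of this 1 probe set. With the spike-in split as a block the value was 0.22.

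Sox3, the X-linked SoxB1 gene, was dim. Positive arrays gave 30.4, 27.2 and 27.9 and negative arrays 39.2, 18.3 and 60.3, so the negative values spanned the positive ones. The difference was -0.30 (SE 0.48, adjusted p = 0.846), with an interval of -1.34 to 0.73. Its lower end nearly reaches the difference of Sox1. The Sox3 value depended on single arrays. The Sox3 difference was 0.09 without negative replicate 3, the brightest of the 6. A second Sox3 probe set exceeded the filter on 2 arrays only and was not tested.

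Sox21, which counteracts SoxB1 factors and pushes progenitors toward differentiation, had the opposite sign in both of its probe sets. The brighter one read 1138, 1040 and 1056 on the positive arrays and 585.9, 638.0 and 981.6 on the negative ones. The groups did not overlap, but negative replicate 3 came close to the positive values. The difference was 0.59 (SE 0.23, adjusted p = 0.354, 95% interval 0.10 to 1.08) and did not pass. The other probe set read 482.2, 643.5 and 333.1 against 173.3, 173.7 and 337.4. Here negative replicate 3 lay just above positive replicate 3. Tested as its own row among 23168 probe sets, it had a difference of 1.12 (SE 0.31, adjusted p = 0.189), and with the spike-in split as a block it was at 0.62 (adjusted p = 0.984). In 18 of 18 settings Sox21 was above 0, from 0.44 to 0.85, and it passed in none. Several of these, such as the replicate block, left the difference unchanged.

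Sox9, the SoxE factor of neural stem cells and early glia, had the sign of Sox1. Its brighter probe set read 98.7, 100.3 and 142.4 on the positive arrays and 154.5, 177.5 and 228.8 on the negative arrays, with no overlap. The difference was -0.72 (SE 0.26, adjusted p = 0.319, 95% interval -1.28 to -0.16) and did not pass. A second probe set read 28.0, 50.3 and 50.2 against 86.2, 74.9 and 102.2, again with no overlap, and gave -1.07 (SE 0.34, adjusted p = 0.294 among probe sets). The third was below the filter on all 6 arrays. With the spike-in split as a block the 2 tested probe sets gave -0.37 and -0.79, so the brighter one came nearer to 0.

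The SoxC genes of young neurons came next. Sox11, which activates neuronal genes such as Tubb3, was read by 6 probe sets, all bright and all with values below 0. The brightest gave 3609, 3569 and 5500 on positive arrays and 7023, 6679 and 5048 on negative arrays. Positive replicate 3 exceeded negative replicate 3, so the groups overlapped. The difference was -0.58 (SE 0.26, adjusted p = 0.453, 95% interval -1.15 to -0.01) and did not pass. Over the 6 probe sets the differences ran from -0.69 to -0.27, with adjusted p of 0.328 to 0.715 among probe sets, and 1 of the 6 had groups that did not overlap. These probe sets read 1 gene and are not independent of each other.

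Positive replicate 3 was the highest positive array in each of the 6 Sox11 probe sets. Without it, where group and spike-in split coincide, Sox11 was lower in positive cells and passed, at a difference of -0.79 (adjusted p = 0.0205). With the split as a block it was at -0.17 (adjusted p = 0.995), and the 6 probe sets lay between -0.38 and 0.03. The Gapdh ratios of positive replicates 1 and 2 were the lowest, at 4.41 and 4.73, with negative replicate 3 next at 5.94. The spike-ins and 18S signals given above set the same positive replicates 1 and 2 apart. So did the sum of neuronal markers, though not each marker: the summed signal over 13 neuronal genes was 16992 and 17953 in positive replicates 1 and 2 but 24247 in positive replicate 3, within the 20526 to 24993 of the negative group. Of the 13, 9 were highest among the positive arrays on replicate 3, with Tubb3 at 2799, 3107 and 5291 on positive replicates 1, 2 and 3. The other 4 were not, among them Syt1 at 427.9, 480.1 and 307.3. The part of these measures in the Sox11 values was not tested. Quantile normalization turned the sign, to 0.11.

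Sox4, the other SoxC gene on the list, gave no single direction. Its brightest probe set read 1592, 1448 and 2272 on positive and 2298, 2419 and 1961 on negative arrays, for a difference of -0.35 (SE 0.23, adjusted p = 0.597, 95% interval -0.85 to 0.15). The high positive value again was replicate 3, and it fell within the negative range. Of 6 tested probe sets 3 were above 0 and 3 below, from -0.45 to 0.35. The second brightest read 678.4, 771.5 and 626.4 against 729.5, 597.9 and 609.6, a difference of 0.10. The other 2 of its 8 probe sets were near the floor. With the spike-in split as a block the brightest was at 0.04.

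**Figure D2:**
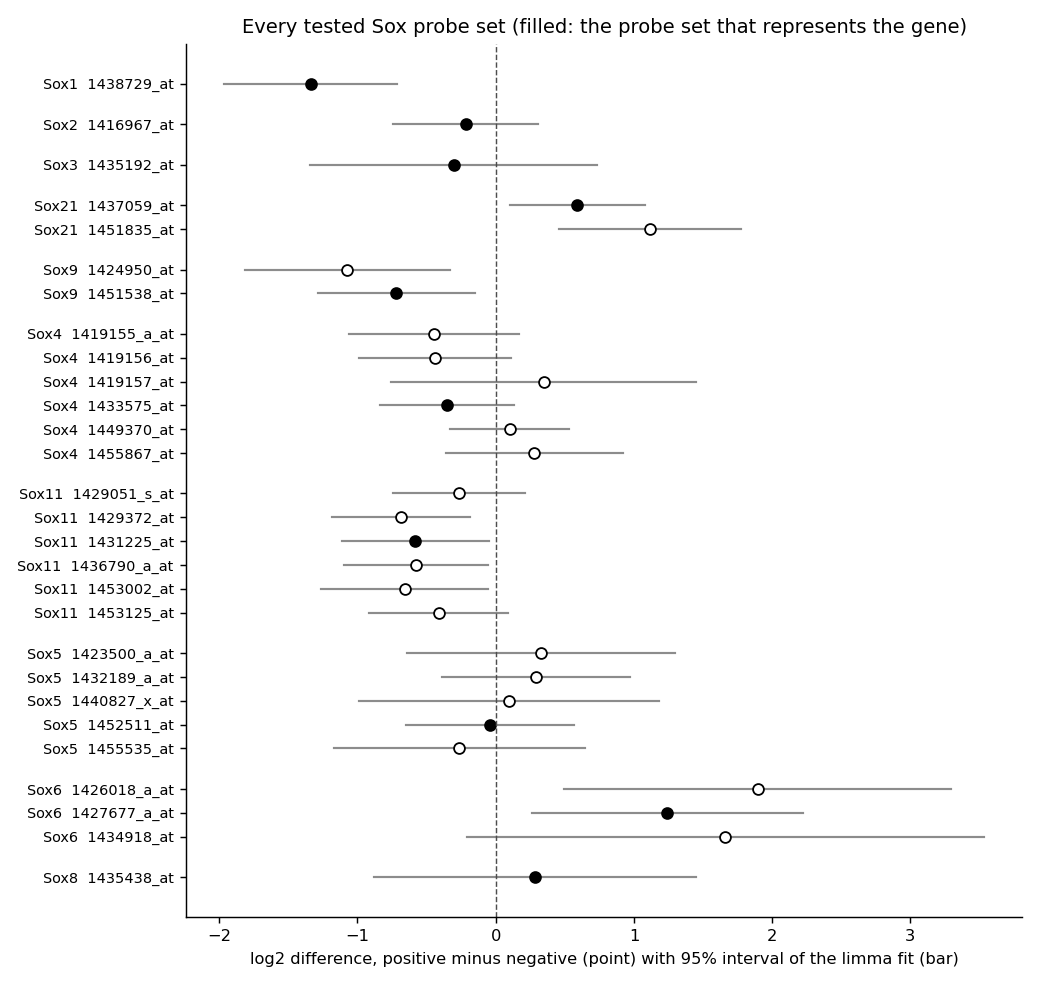
Log2 difference, positive minus negative (x axis), of each of the 28 tested Sox probe sets (y axis), with the 95% interval of the limma fit over all probe sets as a bar and a filled point for the probe set that represents its gene. The 6 Sox11 probe sets lie below 0, the 3 Sox6 and 2 Sox21 probe sets above 0, and those of Sox4 and Sox5 on both sides.

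Sox6, a SoxD gene known as a marker of dopaminergic progenitors and neurons of the substantia nigra lineage, had the highest fitted value of the 10. Its brightest probe set read 63.0, 66.3 and 48.8 on the positive arrays and 49.0, 17.7 and 17.8 on the negative arrays. Only negative replicate 1 reached the positive range, at a value just above positive replicate 3. The difference was 1.24 (SE 0.45, adjusted p = 0.332, 95% interval 0.26 to 2.22) and did not pass. Another probe set read 38.0, 36.8 and 24.1 against 15.5, 10.8 and 3.90, with no overlap, and gave 1.90 (SE 0.65, adjusted p = 0.335 among probe sets). It was not above the filter level on any negative array, so it was tested through the positive arrays alone and its lack of overlap adds little. Set against the filter level its fold was at least 2.49, a bound without allowance for sampling error. The third tested one, at 38.0, 68.6 and 11.1 against 5.34, 4.62 and 37.2, gave 1.66 (SE 0.87). With the spike-in split as a block these 3 were at 0.97, 1.47 and 0.20, in the order given. All 3 were dim, and the fourth was not tested. The value stayed above 0 in 18 of 18 settings, from 0.64 to 1.73, and passed in none. Several of these, such as the replicate block, left the difference unchanged.

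Sox5, the SoxD partner of Sox6, showed values close to 0. It read 92.6, 100.5 and 89.1 on positive and 126.7, 76.9 and 93.1 on negative arrays, with the positive values inside the negative range. The difference was -0.04 (SE 0.28, adjusted p = 0.972, 95% interval -0.64 to 0.55). Over 5 tested probe sets it ran from -0.26 to 0.33, with 3 above 0.

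Sox8, a SoxE gene of the glial lineages, was dim and variable. It read 46.9, 45.2 and 15.3 on positive and 26.5, 16.9 and 40 on negative arrays. Positive replicates 1 and 2 were the 2 highest values and positive replicate 3 the lowest of all 6. The difference was 0.29 (SE 0.54, adjusted p = 0.876, 95% interval -0.88 to 1.45), and it was -0.77 with the spike-in split as a block and -0.027 without negative replicate 2.

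By class, the medians of the progenitor and the neuronal Sox genes were both below 0. The 5 progenitor genes had 1 lower and 0 higher member, 4 values below 0 and a median of -0.30. The 2 neuronal genes had no member past the threshold, both values below 0 and a median of -0.47. The average log2 deviation of the progenitor genes from their 6-array means was -0.17, -0.40 and -0.03 on positive replicates 1, 2 and 3, and -0.04, -0.01 and 0.65 on the negative arrays. That of the neuronal genes was -0.39, -0.47 and 0.17 on the positive arrays and 0.35, 0.35 and 0.00 on the negative ones. The high array was thus negative replicate 3 for the progenitor genes and negative replicates 1 and 2 for the neuronal genes. Within the progenitor class Sox21 ran against the other 4 genes. Without negative replicate 2 the progenitor median was -0.75 and without negative replicate 3 it was -0.09. The neuronal median was -0.07 with the spike-in split as a block and 0.02 after quantile normalization.

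**Figure D3:**
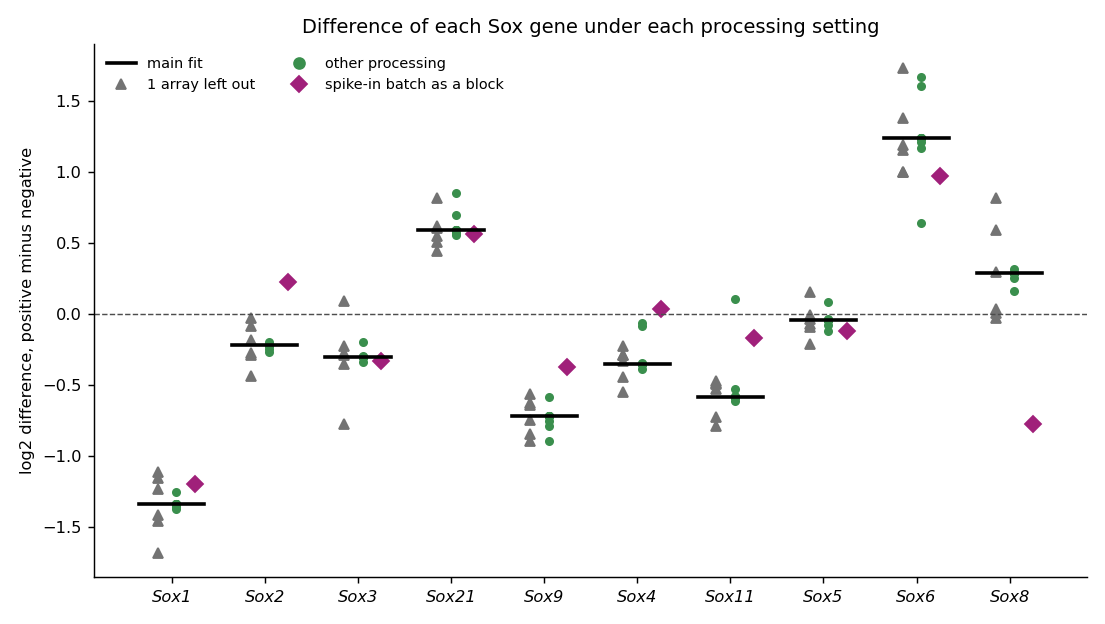
Log2 difference, positive minus negative (y axis), of each Sox gene (x axis) in the main fit (line), with 1 array left out (triangles), under other processing (circles) and with the spike-in split as a block (diamonds). Sox1 and Sox9 stay below 0 and Sox21 and Sox6 above 0 in every setting drawn, while Sox2, Sox3, Sox4, Sox11, Sox5 and Sox8 cross 0 in at least 1.

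The rest of the family gave no call. Of 10 further Sox genes on the array 6 were tested and none passed, with a median of -0.31. None had an unadjusted limma p under 0.05, beside 10.8% of all tested genes. The brightest were Sox12, the remaining SoxC gene, at -0.12 (SE 0.22, adjusted p = 0.871) and Sry at -0.41 (SE 0.43, adjusted p = 0.751). A second tested Sry probe set had the opposite sign, at 0.48 (SE 0.47, adjusted p = 0.760 among probe sets). Sox14, a SoxB2 gene of GABAergic and interneuron lineages, had a value of 1.31 (SE 0.91, adjusted p = 0.620) at a low signal. Sox17 and Sox18, which mark endothelium, did not pass the filter, nor did any of the 9 endothelial marker genes listed, which summed to 56.9 to 73.1 in positive and 28.7 to 71.0 in negative samples. Sox10, which marks neural crest and oligodendrocyte precursors, read -0.20 (SE 0.58).

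Genes that work with or under Sox factors were read from lists. Over all tested genes 0.639% passed as lower, 47.6% of values lay below 0 and the median was 0.03. Among the 20 tested partners and targets of SoxB1 factors in neural progenitors, 15 values were below 0, with a median of -0.36. Of these genes 3 passed, each lower in positive cells. The 3 were Pax6, a progenitor transcription factor that partners Sox2 (-2.22, SE 0.34, adjusted p = 0.00692), Otx2, which specifies the anterior brain (-1.06, SE 0.20, adjusted p = 0.0210), and Fabp7, a lipid carrier of radial glia (-1.18, SE 0.26, adjusted p = 0.0492). With the spike-in split as a block Pax6 passed (-3.11, adjusted p = 0.00267), while Otx2 (-1.12, adjusted p = 0.216) and Fabp7 (-0.62, adjusted p = 0.373) did not. Nes, the intermediate filament gene with a well-known Sox2-bound enhancer, was at -0.0063 (SE 0.29), and the POU partner Pou3f2 at -0.12 (SE 0.19).

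Over all tested genes 1.06% passed and 10.8% had an unadjusted limma p under 0.05. Among 17 tested upstream factors and neuronal targets of SoxC proteins none passed (5 at an unadjusted p under 0.05), with a median of -0.13. The brightest were the microtubule regulator Stmn1 (-0.64, SE 0.32) and Hnrnpk (-0.76, SE 0.32). The Sox11 targets Tubb3 and Dcx were at -0.30 (SE 0.27) and -0.45 (SE 0.28). Neurog2, the gene that names the positive reporter, is on this list and did not pass. It had signals of 591.4 in positive and 352.2 in negative cells, without overlap. The difference was 0.75 (SE 0.21, limma adjusted p = 0.156), and 0.51 with the spike-in split as a block. Among 10 tested SoxE and gliogenic genes none passed (1 at an unadjusted p under 0.05), with a median of -0.16, led in signal by Apcdd1 (-0.10, SE 0.27) and Zbtb20 (0.21, SE 0.26). Beside these, 0 of 13 general neuronal genes and 0 of 11 cycling cell genes passed, at medians of -0.18 and 0.15 (4 and 1 at an unadjusted p under 0.05). The summed signal of the cycling genes lay between 3517 and 4317 in positive samples and between 3603 and 4708 in negative ones, so these ranges overlapped.

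**Figure D4:**
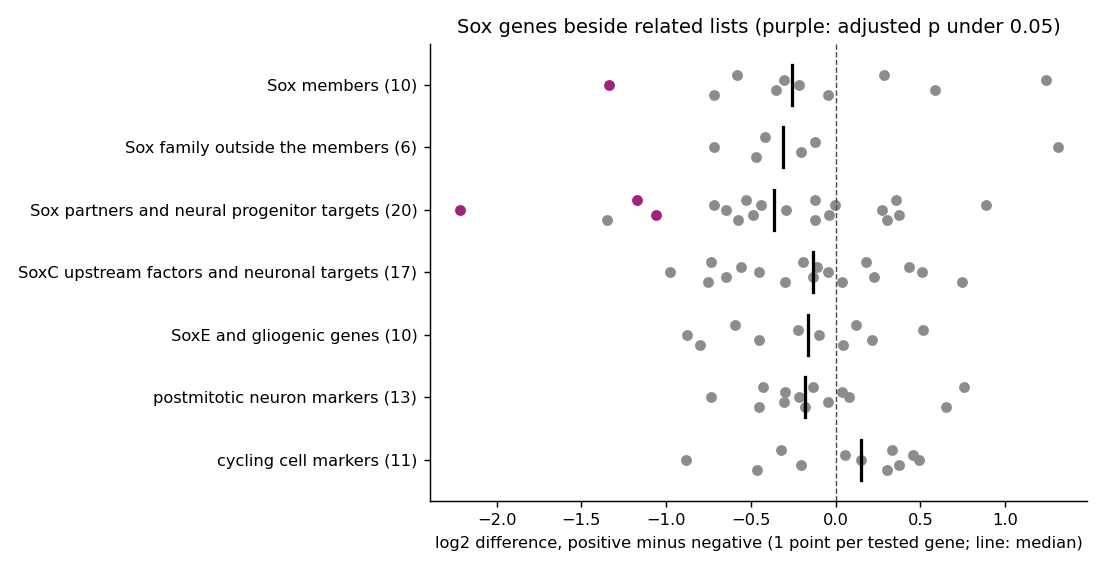
Log2 difference, positive minus negative (x axis), of each tested gene of the Sox members and of 6 related lists (y axis, number of tested genes in brackets), with a line at the list's median and purple points for an adjusted p under 0.05. Purple points are Sox1 among the members and Pax6, Otx2 and Fabp7 among the partners and progenitor targets, all below 0.

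For the genes most like a progenitor and a neuronal Sox gene, log2 signals were correlated over the 6 arrays. The closest to Sox2 were Yars2, Aldh18a1 and Cygb (Pearson r = 0.992, 0.989 and 0.987), and the closest to Sox11 were Cetn3, Cd209f and Epha5 (r = 0.991, 0.990 and 0.988). Among the 12042 genes of the fit, 24 outside the members exceeded 0.95 for Sox2 and 99 for Sox11. The 6 arrays share 2 groups and a spike-in split, whose part in these correlations was not tested. The correlations describe these arrays alone.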

How the data were processed

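Total RNA was labelled with biotin and hybridized to 6 arrays, per the labels' protocols. The deposited table gives the intensity of 45101 probe sets on a linear scale. Per the submitters' processing notes MAS5, limma and R 2.14.2 were used by the authors; MAS5 scales each array, so total RNA content is not measured. The genome build is not given in the sources used here.

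The platform annotation named 1 gene for 34945 of the 45037 probe sets that are not controls, several for 932 and none for 9160. A floor of 1 was applied before the log2 step. Probe sets above the 40th percentile of their array (10.2 to 15.9) on at least 3 arrays were tested, with the brightest for each gene. Where a group was at or below that percentile on all its arrays, the fold is a bound against the percentile. The comparison used limma 3.58.1 under R 4.3.3 (lmFit, eBayes with a trend, two-sided, 4 residual degrees of freedom), tested on simulated data. Probe sets were also tested singly. Replicates are biological per the series' design text; their number limits precision. Members and lists, and the spike-in split (the widest gap in the mean of 18 control probe sets), were chosen with earlier results of these data known. All 10 members were named, with list genes past the threshold (up to 3) or the 2 brightest, and the 3 closest to Sox2 and Sox11; other list genes were named after their values were seen. Alternatives covered scaling, filter, log transform, variance model, probe set choice, blocks and arrays left out. Plots used matplotlib 3.10.9 (Python 3.11.15).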

Additional observations from a re-analysis of the deposited data

How the results depend on the processing

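Each Sox gene was refitted under up to 18 other settings, which gave 179 values. Of these, 168 kept the direction of the main fit and 9 passed the threshold, 8 of them for Sox1 and 1 for Sox11. The variance model and the replicate block change the SE and not the difference, so part of the 168 was fixed in advance. The values that turned sign were Sox11 at 0.11 after quantile normalization, Sox2 at 0.22, Sox4 at 0.035 and Sox8 at -0.77 with the spike-in split as a block and, equally, within the 4 arrays of higher spike-in signal alone, Sox5 at 0.081 with the mean of its probe sets and at 0.15 without negative replicate 1, Sox3 at 0.088 without negative replicate 3, and Sox8 at -0.027 without negative replicate 2. The cause was not tested.

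The count of Sox genes called was 1 in the main fit and 0 with median centring, without the filter, without the variance trend, with each probe set tested singly, with the spike-in split as a block and within its higher side. It ran from 0 to 2 with 1 array left out. The count over all genes was 128 and became 41 without the variance trend, 19 without the filter, 34 with the spike-in split as a block and 40 within its higher side, where 11295 genes were tested. It ran from 57 to 418 with 1 array left out, the highest being the fit that drops positive replicate 3, in which the split equals the group. The neuronal median moved from -0.47 to -0.067 in both spike-in fits and to 0.024 after quantile normalization. With 1 array left out the progenitor median lay between -0.75 and -0.086 and the neuronal one between -0.67 and -0.35. With 1 array left out Sox5 lay between -0.21 and 0.15 and Sox8 between -0.027 and 0.82. Sox3 had no value under the filter at the 60th percentile.

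Same-numbered arrays of the groups correlated in their deviations at 0.14, -0.10 and 0.03, and differently numbered ones at -0.16 to 0.12. With 3 arrays per group, these values cannot show whether same-numbered arrays share more than a name. With the replicate block 127 genes passed, Sox1 among them (adjusted p = 0.0387), and no call on a Sox gene changed. Dim genes such as Sox3, Sox8 and Sox6 lie within a few fold of the filter level, and their wide intervals limit what could be detected. The limit is not theirs alone. In the simulated data a log2 change of 1 passed in 16.7% of changed genes and a change of 2 in 61.5%. A member that did not pass may still differ between the groups.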
